A study of Mus musculus with 8 samples.

Results

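The genes described here mark macrophages, the Kupffer cells that live in the liver and the lipid-associated macrophages that gather where fat accumulates. They are 33 genes of the 24462 gene symbols in the deposited values, chosen by symbol. They fall into 6 Kupffer genes (Clec4f, Vsig4, Timd4, Marco, Cd5l and Folr2), 6 lipid-associated genes (Trem2, Gpnmb, Cd9, Spp1, Mmp12 and Itgax) and 21 genes that most macrophages share. Their mRNA was measured in liver and subcutaneous fat of wild-type (WT) mice and of mice that lack Mkrn1 in the whole body, an E3 ubiquitin ligase gene, to ask what its loss changes under a high-fat diet (HFD). All mice were male, of the C57BL/6 strain and labelled as 24 weeks old, and all were given the HFD from 6 weeks of age for 19 weeks. These label values do not add up, and the study's methods give a shorter HFD for its obesity experiments, so the exact length is uncertain. No library came from mice on a normal diet, so a level of the WT mice is a level on the HFD. Each of the 4 groups (WT liver, null liver, WT fat and null fat) has 2 libraries. Liver and fat with the same genotype and number carry the same mouse tag.

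Macrophages take up dying cells, lipoproteins and microbes and digest them in lysosomes. Kupffer cells are the resident macrophages of the liver sinusoids and clear particles from portal blood. In fatty liver and in obese fat, monocytes recruited through Ccr2 can become lipid-associated macrophages, which express Trem2, a lipid-sensing receptor that signals through the adaptor Tyrobp. In whole tissue, fewer cells of a type and less RNA per cell cannot be told apart.

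Levels are given in FPKM (fragments of a gene scaled to transcript length and to the depth of the library), so that genes can be compared. Mkrn1 itself was 9.42 and 10.1 FPKM in WT livers against 2.86 and 2.21 in null livers, and 16.8 and 19.3 in WT fat against 4.58 and 2.90 in null fat, so it was reduced but not at 0. The tissue labels were checked by Alb (33790 FPKM or more in every liver and at most 16.5 in fat) and Adipoq (1666 FPKM or more in every fat library and at most 0.225 in liver). Aligned read amounted to 5.72 to 9.24 Gb per library. Null fat replicate 2 stood apart: 8 skeletal muscle genes took 17.6% of all its FPKM (93600 FPKM in sum), against 30.4 to 265 FPKM in the other fat libraries. Results in fat are therefore given with and without it.

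The promoter windows of the 4 lipid-associated genes with the largest called change in null liver are shown first, because these genes carry the main difference in liver described below. The windows span 300 bases, 250 before and 50 after the start, from RefSeq on GRCm38.p6, the assembly that mm10 names. Capitals mark GAGGAA or its reverse complement TTCCTC, the core letters bound by PU.1 (Spi1), the transcription factor that defines the macrophage lineage. Spp1 lies on the plus strand at chr5:104434861-104435160, Gpnmb on plus at chr6:49036268-49036567, Trem2 on plus at chr17:48346151-48346450 and Cd9 on minus at chr6:125494711-125495010.
Spp1: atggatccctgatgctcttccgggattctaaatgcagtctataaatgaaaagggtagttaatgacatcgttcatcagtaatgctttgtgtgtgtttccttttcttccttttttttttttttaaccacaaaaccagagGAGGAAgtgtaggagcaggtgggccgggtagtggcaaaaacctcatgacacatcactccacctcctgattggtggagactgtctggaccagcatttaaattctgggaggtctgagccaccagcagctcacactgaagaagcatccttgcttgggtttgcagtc
Gpnmb: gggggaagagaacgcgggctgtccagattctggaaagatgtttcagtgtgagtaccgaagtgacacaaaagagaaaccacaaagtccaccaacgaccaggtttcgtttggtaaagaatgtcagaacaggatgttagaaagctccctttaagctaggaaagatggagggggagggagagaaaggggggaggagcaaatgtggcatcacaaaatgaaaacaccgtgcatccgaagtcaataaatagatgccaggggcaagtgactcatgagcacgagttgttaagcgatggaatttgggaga
Trem2: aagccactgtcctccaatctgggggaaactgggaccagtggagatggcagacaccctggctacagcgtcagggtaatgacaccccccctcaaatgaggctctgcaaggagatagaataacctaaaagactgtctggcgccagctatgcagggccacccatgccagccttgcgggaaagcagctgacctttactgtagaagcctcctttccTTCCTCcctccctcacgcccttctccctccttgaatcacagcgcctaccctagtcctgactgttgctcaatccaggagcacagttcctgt
Cd9: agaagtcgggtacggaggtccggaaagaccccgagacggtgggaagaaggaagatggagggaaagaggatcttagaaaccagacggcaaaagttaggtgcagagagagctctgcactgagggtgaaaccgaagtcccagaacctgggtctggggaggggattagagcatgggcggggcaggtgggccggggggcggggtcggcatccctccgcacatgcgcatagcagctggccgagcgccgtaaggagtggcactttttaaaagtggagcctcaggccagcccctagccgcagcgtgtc
In these windows the match began 113 bases before the start in Spp1 and 40 before it in Trem2, whereas Gpnmb and Cd9 held none. Of the 33 genes, 27 had a window, and 13 of these 27 (48.1%) held the letters on either strand in at least 1 window, against 31.3% of all 27025 genes with a window. They were 3 of 6 Kupffer, 3 of 6 lipid-associated and 7 of 15 shared genes. A match describes the letters only.

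In liver, lipid-associated genes and most shared macrophage genes were lower in the null mice, whereas the Kupffer genes had no common difference. Spp1, Trem2, Gpnmb, Cd9 and Itgax were called lower by the test below, as were 14 of 20 shared genes tested, among them Lgals3, Ctss, Clec7a, Lyz2 and Tyrobp. No gene of the 33 was called higher. A gene was tested where it reached 1 FPKM in at least 2 of the 4 libraries of the tissue, by limma on log2(FPKM + 1), on which scale all log2 differences (null minus WT) stand. A gene is called at an adjusted p under 0.05 over all tested genes. The study thresholds, an unadjusted p of at most 0.05 with a log2 difference of at least 0.58, are given apart.

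Of the 33 genes 32 were tested in liver, and 19 (59.4%) were called lower and 0 higher. Over all 10808 tested genes 16.9% were called lower and 2.52% higher. By the study thresholds 22 were lower and 0 higher, against 13.4% and 2.25% of all genes. Both null livers lay below both WT livers for 24 of the 32 (75.0%), where 57.6% of all genes did, and above them for 1 (Cd163), where 11.8% did. The median log2 difference was -0.989 over the 32 genes and -0.175 over all genes. The median of all genes was 0.004 with median-of-ratios scaling, under which the median of the 32 was -0.814 and 16 were called. Of all genes called, 87.1% were lower as deposited, 64.6% with median-of-ratios scaling and 61.7% with quantile normalization. 5 of the 32 genes (Trem2, Gpnmb, Mmp12, Itgax and Ccr2) were under 1 FPKM in both null livers and so were tested only because of their WT level, which favours a difference. Of the other 27 genes 15 were called, and with no filter on level 15 of all 33 were, among them Trem2, Gpnmb, Itgax and Ccr2. With all 8 libraries in one fit 0 of the 32 were called and 6 passed the study thresholds. Without null liver replicate 1 10 were called, and without null liver replicate 2 only Spp1 and Trem2 were.

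**Figure D1:**
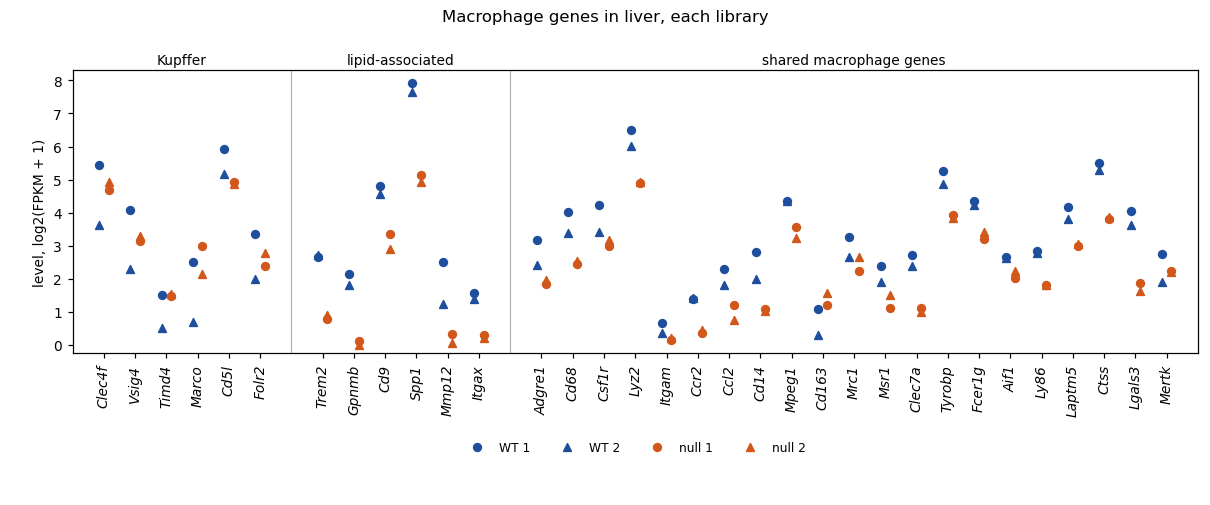
Level of each gene in each liver library as log2(FPKM + 1), WT in blue and null in orange, circles for replicate 1 and triangles for replicate 2. The lipid-associated genes lie lower in both null livers than in both WT livers, whereas the WT livers are far apart for Clec4f, Vsig4, Timd4, Marco and Folr2.

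Spp1, which encodes the secreted glycoprotein osteopontin, was the most abundant of the 33 in WT liver, at 242 and 201 FPKM, and was 34.4 and 29.7 FPKM in null livers. It fell by 2.75 on the log2 scale (SE 0.131, limma, adjusted p = 0.00575), a 6.92-fold lower mean FPKM. Spp1 is also made by bile duct epithelium, whose 6 marker genes summed to 9.05 and 11.9 FPKM in WT livers and 2.93 and 3.72 in null livers. Against 16.9% of all genes, 3 of the 4 markers tested were called lower. Of these, Krt19 (0.648 and 0.562 FPKM in null livers) and Epcam (0.444 and 0.545) were tested only because of their WT level, which favours a difference. The part of bile duct epithelium in the difference of Spp1 was not tested. Almost all Spp1 signal was on 1 of its 5 transcripts, NM_009263 (225 and 194 FPKM in WT, 32.0 and 28.4 in null livers).

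Trem2 was 5.31 and 5.55 FPKM in WT livers and 0.730 and 0.876 in null livers. The libraries of a group were alike and the groups far apart. Trem2 fell by 1.84 on the log2 scale (SE 0.099, limma, adjusted p = 0.00681, and 0.0293 with no filter). Gpnmb, a transmembrane glycoprotein found on lysosomes of lipid-loaded macrophages, was 3.45 and 2.55 FPKM in WT livers, 0.0931 in null liver 1 and listed at 0 in null liver 2 (log2 difference -1.93, SE 0.149, limma, adjusted p = 0.00977). Behind these values stood 79.3 and 72.2 kilobases of aligned read in the WT livers and 2.22 in null liver 1, so that the null level was near what this depth can detect.

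Itgax, the integrin chain CD11c, was likewise scarce, at 1.96 and 1.64 FPKM in WT and 0.237 and 0.145 in null livers (log2 difference -1.23, SE 0.119, limma, adjusted p = 0.0123). Cd9, a tetraspanin of the cell surface that many cell types carry, was 27.1 and 22.8 FPKM in WT and 9.25 and 6.44 in null livers, and fell by 1.57 (SE 0.184, limma, adjusted p = 0.0155). Mmp12, the macrophage elastase, passed the study thresholds alone. It was 4.72 FPKM in WT liver 1, 1.38 in WT liver 2 and 0.247 and 0.0448 in null livers (log2 difference -1.69, SE 0.428, limma, adjusted p = 0.055). All 6 lipid-associated genes were thus lower in both null livers than in either WT liver, as were 57.6% of all tested genes. Trem2, Gpnmb, Mmp12 and Itgax were tested only because of their WT level, which favours this. Mmp12 passed the adjusted threshold with a pseudocount of 0.1 (limma, adjusted p = 0.0358) and with TPM (0.036), and with no filter its adjusted p was 0.09.

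In relation to the shared genes, the lipid-associated genes stood lower and the Kupffer genes higher in null liver. The mean level of the 6 lipid-associated genes minus that of the 21 shared genes, in log2(FPKM + 1), was 0.25 and 0.31 in WT livers and -0.52 and -0.74 in null livers. The same difference for the 6 Kupffer genes was 0.45 and -0.55 in WT livers and 1.07 and 1.02 in null livers. Per FPKM of Tyrobp, the adaptor that Trem2 needs for signalling, both null livers lay below both WT livers for all 6 lipid-associated genes and above them for all 6 Kupffer genes. Of the 20 shared genes other than Tyrobp 6 lay below and 6 above. Tyrobp was itself called lower in null liver (log2 difference -1.16), so a gene with no difference stands higher on this measure. The share of all genes below or above on it was not worked out. Trem2 was 0.143 and 0.198 FPKM per FPKM of Tyrobp in WT and 0.051 and 0.0651 in null livers, and Clec4f 1.13 and 0.406 in WT and 1.73 and 2.18 in null livers. These are descriptions of 2 libraries each, with no test.

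**Figure D2:**
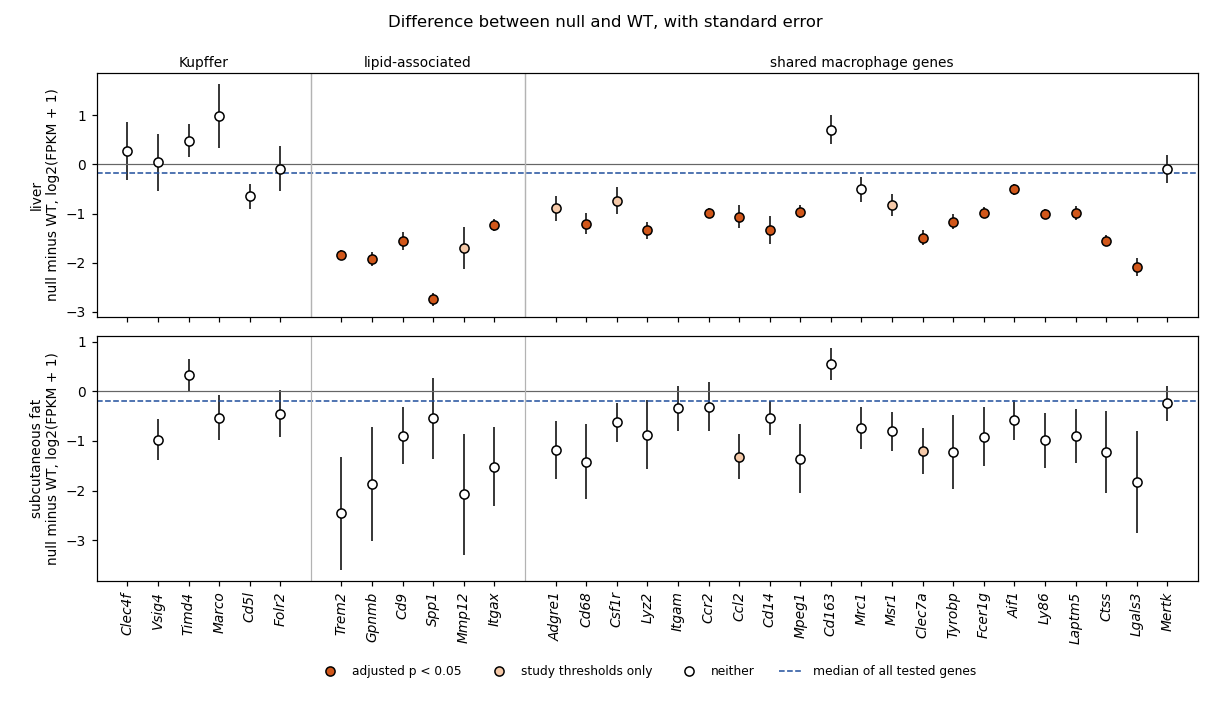
Difference of null minus WT in log2(FPKM + 1) with its standard error, for the 32 genes tested in liver (top) and the 31 tested in fat (bottom), 2 libraries a group. Filled points passed an adjusted p under 0.05, pale points the study thresholds alone, and the dashed line is the median of all tested genes (-0.175 in liver and -0.198 in fat).

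Among the shared genes, the largest called differences in null liver were those of Lgals3 and Ctss, and the other lysosomal genes were called lower as well. Lgals3, the galectin that gathers on damaged lysosomes and is secreted by macrophages, was 15.6 and 11.2 FPKM in WT and 2.67 and 2.09 in null livers (log2 difference -2.08, SE 0.183, limma, adjusted p = 0.0108). Ctss, the cathepsin that processes antigen, was 44.4 and 37.8 FPKM in WT and 13.0 and 13.6 in null livers (log2 difference -1.55, SE 0.106, limma, adjusted p = 0.00889). Neither gene had overlapping groups. Cd68, a lysosomal membrane glycoprotein, was 15.1 and 9.54 FPKM in WT and 4.43 and 4.82 in null livers (adjusted p = 0.0282 by limma). Laptm5, a lysosomal membrane protein of leukocytes, and Mpeg1, which makes pores in engulfed bacteria, were called with log2 differences of -0.99 and -0.96. Lyz2, a lysozyme, was the most abundant shared gene, at 89.2 and 63.8 FPKM in WT and 28.7 and 29.5 in null livers (log2 difference -1.34, SE 0.171, limma, adjusted p = 0.0173). Its near-identical neighbour Lyz1 was at 0.653 FPKM or less in each liver, and how reads were shared between the pair is uncertain.

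Clec7a, Cd14 and Ly86, genes of innate recognition, and the adaptors Tyrobp and Fcer1g were called lower in null liver. Clec7a, the β-glucan receptor dectin-1, was 5.61 and 4.19 FPKM in WT and 1.17 and 0.990 in null livers (log2 difference -1.49, SE 0.15, limma, adjusted p = 0.013). Tyrobp was 37.1 and 28.1 FPKM in WT and 14.3 and 13.5 in null livers. Fcer1g, the signalling chain of Fc receptors, was 19.6 and 17.6 FPKM in WT and 8.27 and 9.60 in null livers. Both adaptors were lower in each null liver than in each WT liver, with log2 differences of -1.16 (limma, adjusted p = 0.0173) and -0.98 (limma, adjusted p = 0.0148). Cd14, the co-receptor for lipopolysaccharide, was 6.02 and 2.96 FPKM in WT and 1.13 and 1.05 in null livers (log2 difference -1.34). Ly86, the partner of the receptor RP105, was 6.13 and 5.87 FPKM in WT and 2.49 and 2.51 in null livers (log2 difference -1.001). Aif1, the actin-binding protein IBA1, had the smallest called difference (-0.50, SE 0.11, limma, adjusted p = 0.0415), from 5.30 and 5.19 FPKM in WT to 3.09 and 3.74 in null livers.

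The chemokine Ccl2 and its receptor Ccr2, which draw monocytes into tissue, were both called. Ccr2 was 1.61 and 1.65 FPKM in WT and 0.287 and 0.361 in null livers (log2 difference -0.99, SE 0.102, limma, adjusted p = 0.0136). Ccl2 was 3.92 and 2.50 FPKM in WT and 1.33 and 0.685 in null livers (log2 difference -1.07, SE 0.237, limma, adjusted p = 0.0428). For both genes the groups did not overlap. Itgam, the integrin chain CD11b carried by monocytes, was 0.600 FPKM or less in every liver and was not tested. Without null liver replicate 1, 9 of the 19 called genes lost the call, namely Aif1, Ccl2, Ccr2, Cd14, Cd68, Fcer1g, Laptm5, Lyz2 and Tyrobp.

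Adgre1, Csf1r, Msr1, Mrc1, Mertk and Cd163, all surface receptors of macrophages, were not called at the adjusted threshold. Adgre1, the F4/80 antigen, was 7.998 and 4.39 FPKM in WT and 2.62 and 2.89 in null livers (log2 difference -0.89, SE 0.256, limma, adjusted p = 0.0706). Csf1r, the receptor of macrophage growth factors (log2 difference -0.74), and Msr1, a scavenger receptor for modified lipoproteins (-0.83), likewise passed the study thresholds and not the adjusted one. For these 3 genes both null livers lay below both WT livers. Mrc1, the mannose receptor, was not called (log2 difference -0.51, SE 0.255). Mertk, a receptor kinase for dying cells, was 5.68 and 2.71 FPKM in WT and 3.74 and 3.63 in null livers, and its difference of -0.09 (SE 0.287) was 0.08 with median-of-ratios scaling. Cd163, the scavenger receptor for haemoglobin and haptoglobin, was 1.12 and 0.238 FPKM in WT and 1.32 and 1.998 in null livers (log2 difference 0.71, SE 0.293, limma, adjusted p = 0.146).

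The Kupffer genes were present in liver, and 0 of 6 were called in either direction. Clec4f, a lectin receptor found on Kupffer cells and hardly elsewhere, was 42.1 FPKM in WT liver 1, 11.4 in WT liver 2 and 24.8 and 29.3 in null livers. Vsig4, a complement receptor, was 15.9 and 3.87 FPKM in WT and 7.88 and 8.83 in null livers. Both null livers lay between the WT livers for these genes, and the log2 differences were 0.27 (SE 0.59) and 0.04 (SE 0.587). Folr2, a folate receptor of resident macrophages, was 9.25 and 2.99 FPKM in WT and 4.26 and 5.94 in null livers (log2 difference -0.08, SE 0.465, and 0.10 with median-of-ratios scaling). Marco, a scavenger receptor, was 4.66 and 0.603 FPKM in WT and 7.03 and 3.46 in null livers (0.99, SE 0.654). Timd4, a receptor for phosphatidylserine on dying cells, was 1.86 and 0.433 FPKM in WT and 1.76 and 1.89 in null livers (0.48, SE 0.337). Cd5l, a secreted protein of tissue macrophages, was the only one of the 6 with both null livers below both WT livers, at 60.0 and 35.1 FPKM in WT and 29.6 and 28.4 in null livers (log2 difference -0.65, SE 0.256, limma, adjusted p = 0.133).

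The WT livers differed from each other in the Kupffer genes more than in most genes. WT liver 1 had 3.69 times the Clec4f of WT liver 2, a gap at percentile 99.6 of all tested genes, and the gaps of Vsig4 and Marco stood at 99.6 too. The gaps of Timd4, Folr2 and Cd5l stood at 98.6, 99.2 and 97.4. Of the lipid-associated genes Mmp12 stood at 99.2 and the other 5 from 22.0 (Trem2) to 83.4 (Gpnmb), and shared genes also varied, with Mpeg1 at 6.7 and Cd14 at 97.9. Clec4f, Vsig4, Timd4 and Folr2 changed direction with the WT liver left out, whereas Marco stayed higher and Cd5l lower. Without WT liver replicate 1 the median log2 difference of the Kupffer genes was 0.96, against -0.16 over all genes. Clec4f then stood at 1.17, Vsig4 at 0.94 and Timd4 at 0.98. Without WT liver replicate 2 the median was -0.69, against -0.194 over all genes, with Vsig4 at -0.85 and Cd5l at -1.03. The lipid-associated genes Spp1, Trem2, Gpnmb, Cd9 and Itgax stayed lower in null liver in both cases.

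Related genes were taken from 7 lists of macrophage function, to be read against the 16.9% of all tested genes that were called lower in liver. Of genes of the phagocyte oxidase (the enzyme that makes superoxide) and lysosome, 14 of 17 tested were called lower, and of genes of lipid handling in lipid-associated macrophages 7 of 10. Of phagocyte receptors and their signalling 9 of 16 were called lower, of growth factors and chemokines 4 of 6, of complement C1q and Kupffer-related genes 4 of 11, and of inflammatory cytokines and mediators 2 of 6. None of these 6 lists held a gene called higher. Their median log2 differences were -0.70, -0.82, -0.60, -0.92, -0.65 and -0.69 in that order, against -0.175 over all genes. Of 9 macrophage transcription factors 2 (22.2%) were called lower, near the share of all genes. Another 2 (22.2%) were called higher, where 2.52% of all genes were. Hepatocytes and other liver cells express many genes of the lysosome and lipid lists. Some called genes, such as Ccl4 and Ctsk, were tested only because of their WT level, which favours a difference.

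In the lysosome list Cd63, a tetraspanin of late endosomes, fell furthest, from 42.5 and 25.8 FPKM in WT to 3.93 and 3.70 in null livers (log2 difference -2.83, SE 0.241, limma, adjusted p = 0.0105). Ctsk, a collagen-cleaving cathepsin (-0.89), Cybb, the catalytic chain of the oxidase (-0.91), and Lipa, the lysosomal acid lipase (-0.97), were called as well. Ctsk was 0.372 and 0.334 FPKM in null livers, and was tested only because of its WT level. In the lipid list Lgals1, a galectin, fell by 2.53 (SE 0.27), Fabp4, a fatty acid binding protein, by 1.67 (SE 0.099), Lpl, the lipoprotein lipase, by 1.54 (SE 0.113) and Plin2, which coats lipid droplets, by 1.33 (SE 0.316). Plin2 is abundant in hepatocytes, and was 738 and 760 FPKM in WT and 413 and 214 in null livers. Among receptors, Cd36, the fatty acid and lipoprotein scavenger receptor, was 86.8 and 73.6 FPKM in WT and 17.7 and 11.5 in null livers. Gas6, the ligand of Mertk and Axl, was 76.4 and 47.1 FPKM in WT and 16.0 and 13.8 in null livers. Cd36 (log2 difference -2.40, limma, adjusted p = 0.0112) and Gas6 (-1.94, adjusted p = 0.0167) were called, as were Sirpa, the receptor of the "do not eat" signal CD47 (-1.26), and Itgb2, the partner chain of both Itgam and Itgax (-0.99).

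Spi1, which encodes PU.1, was 6.29 and 4.35 FPKM in WT and 2.46 and 2.17 in null livers (log2 difference -0.91, SE 0.173, limma, adjusted p = 0.0312), and Irf8, which acts with it, fell by 0.85. Irf5, a factor of inflammatory macrophages, was 3.63 and 3.68 FPKM in WT and 7.03 and 10.9 in null livers (log2 difference 1.07, SE 0.201, limma, adjusted p = 0.031). Bhlhe41 was 0.442 and 0.145 FPKM in WT and 1.86 and 1.49 in null livers (1.06, SE 0.16), and was tested only because of its null level. Both factors thus stood above WT in each null liver. The complement chains C1qc (-0.99) and C1qb (-0.91), which tissue macrophages make, and Vcam1, an adhesion molecule of endothelium and macrophages (-1.10), were called lower. Hmox1, which breaks down haem, passed the study thresholds alone (-0.84). The chemokines Ccl4 (-1.19), Cxcl16 (-0.95) and Ccl6 (-0.90) were called, and Ccl5 passed the study thresholds alone (-1.52), with 3.62 and 12.8 FPKM in the WT livers. Ccl4 was 0.195 and 0.0756 FPKM in null livers, and was tested only because of its WT level. Il1b, an inflammatory cytokine (-0.63), and Tlr2, a receptor for bacterial lipoproteins (-0.75), were called, whereas Il1rn, the antagonist of the Il1 receptor (-0.99), and Tgfb1, the cytokine TGFβ (-0.85), passed the study thresholds alone.

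Several lists of markers of other cells also held genes called lower in null liver, where 16.9% of all genes were. The 6 leukocyte genes summed to 59.8 and 66.1 FPKM in WT and 38.9 and 40.1 in null livers, with 4 of 6 called lower. The 8 genes of stellate cells and fibroblasts summed to 168 and 229 FPKM in WT and 65.0 and 68.6 in null livers, with 5 of 8 called lower. The 7 endothelial genes summed to 62.1 and 100 FPKM in WT and 48.6 and 61.8 in null livers, with 1 of 7 called, so their ranges nearly met. The 8 monocyte genes, which include 1 that hepatocytes also express (Fn1), summed to 209 and 251 FPKM in WT and 233 and 236 in null livers, with 4 of 5 tested called lower. The 9 neutrophil genes summed to 6.77 and 7.75 FPKM in WT and 4.33 and 4.50 in null livers, with 1 of 2 tested (S100a9) called lower and Ly6g listed at 0 in 3 of the 4 livers. The 6 adipocyte genes summed to 87.1 and 98.1 FPKM in WT and 3.24 and 15.03 in null livers. Of these only Cidec, a lipid droplet gene that fatty hepatocytes also express, was tested, and it was called lower. None of 12 T and NK cell genes and none of 5 mast cell genes reached the filter, whereas 1 of 6 B cell genes and 1 of 7 dendritic cell genes did and neither was called. Hepatocyte genes summed to 51640 and 57710 FPKM in WT and 62350 and 63930 in null livers. The part of these cells in the lower macrophage genes was not tested.

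In fat, 31 of the 33 genes were tested (Clec4f and Cd5l were below the filter), and 0 were called at the adjusted threshold, as were 0.0% of all 12149 genes. By the study thresholds Ccl2 and Clec7a were lower and 0 were higher, against 5.35% and 0.708% of all genes. At an unadjusted p under 0.05 by limma stood the same 2 of 31 genes, and 6.44% of all genes. The median log2 difference was -0.90 over the 31 genes and -0.198 over all genes. Simulated fat libraries with this spread gave a call for 5% of genes changed by 1 log2 unit and 75% of those changed by 2. The simulation varied each gene on its own and held no shift shared by many genes of a library, so these shares need not hold here. Mkrn1 itself, with a log2 difference of -2.025 (SE 0.263), was not called in fat (limma, adjusted p = 0.68).

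The null fats were less alike (Pearson r = 0.88 across the tested genes) than the WT fats (0.986). Null fat 1 was below both WT fats for 11 of the 31 genes (35.5%), where 44.8% of all genes were. Null fat 2, which holds the muscle RNA, was below both for 29 (93.5%), where 71.1% of all genes were. Both null fats were below both WT fats for 11 (35.5%), against 36.1% of all genes. Without null fat replicate 1, 28 of the 31 genes were called lower, where 42.9% of all genes were. Without null fat replicate 2, 0 were called and the median log2 difference was -0.34 for lipid-associated, -0.19 for shared and 0.13 for Kupffer genes, against -0.041 over all genes. Without WT fat replicate 1 these medians were -2.28, -1.09 and -0.56 in the same order, against -0.228 over all genes.

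**Figure D3:**
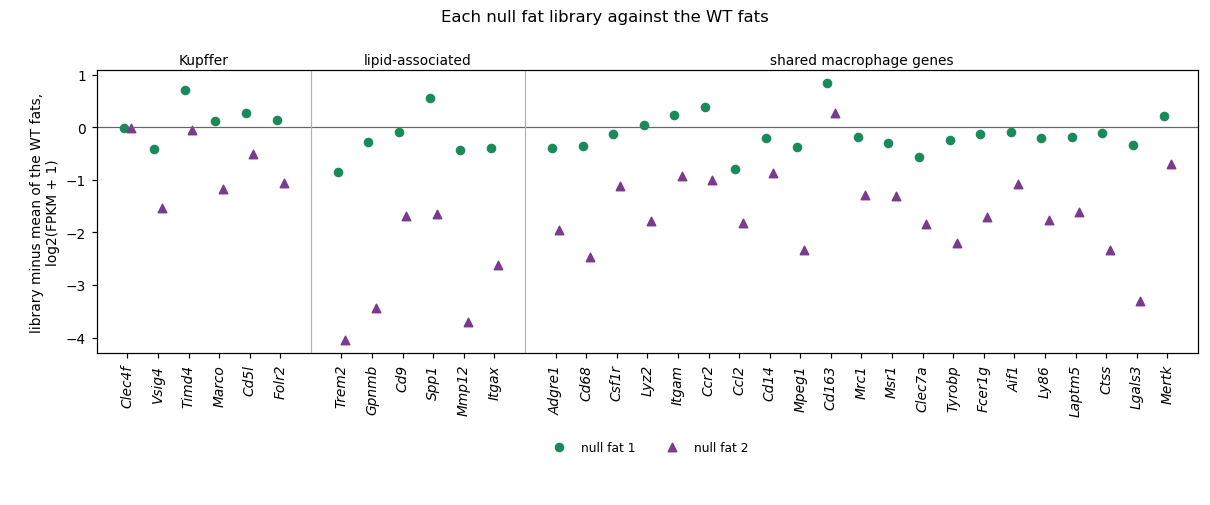
Level of each gene in null fat 1 (circles) and null fat 2 (triangles) minus the mean of the 2 WT fats, in log2(FPKM + 1). Of the 31 tested genes null fat 1 lies below the WT mean for 22 (median -0.19) and null fat 2 for 30 (median -1.69), furthest for Trem2, Mmp12, Gpnmb and Lgals3.

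Trem2 was 23.5 and 58.8 FPKM in WT fats, 20.1 in null fat 1 and 1.304 in null fat 2 (log2 difference -2.46, SE 1.14). Gpnmb was 24.2 and 67.4 FPKM in WT fats, 33.3 in null fat 1 and 2.83 in null fat 2 (-1.86, SE 1.15). For both genes WT fat 2 was far above WT fat 1, and null fat 1 was near WT fat 1. Mmp12 was 7.76 and 28.5 FPKM in WT and 10.9 and 0.231 in null fats, and Itgax 6.67 and 13.6 in WT and 7.002 and 0.707 in null fats. Cd9 was 57.0 and 73.7 FPKM in WT and 60.8 and 19.3 in null fats. Spp1, so abundant in WT liver, was only 2.08 and 5.38 FPKM in WT and 5.50 and 0.415 in null fats. The adjusted p by limma was 0.68 for 5 of the 6 genes and 0.784 for Spp1.

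**Figure D4:**
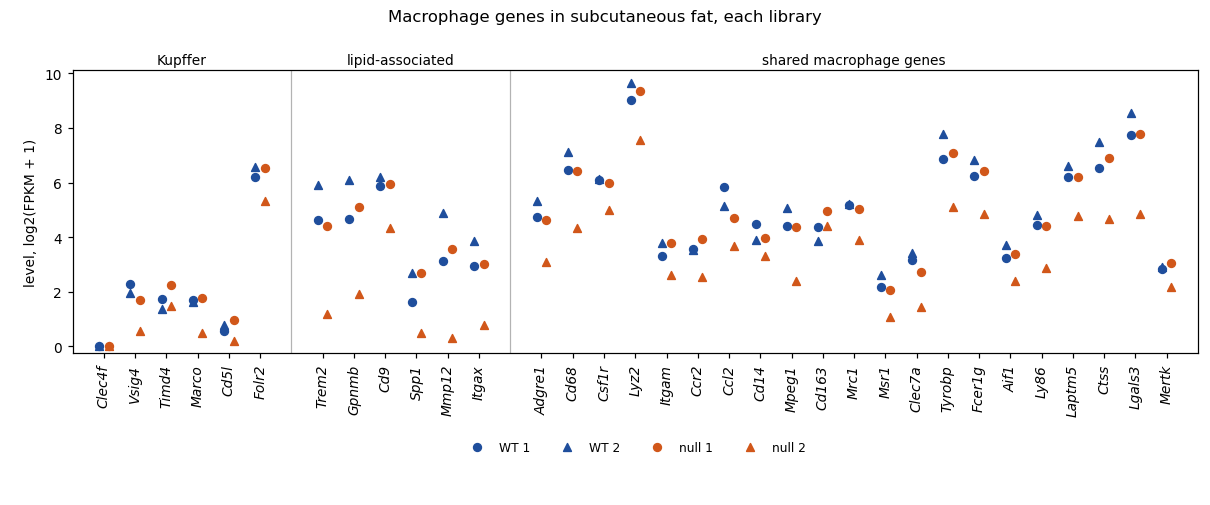
Level of each gene in each fat library as log2(FPKM + 1), WT in blue and null in orange, circles for replicate 1 and triangles for replicate 2. Null fat 2 is the lowest library for most genes, Clec4f is at or near 0 in every fat library, and Lyz2 and Lgals3 are the most abundant.

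Of the shared genes, Ccl2 was 56.0 and 34.3 FPKM in WT and 24.8 and 11.6 in null fats (log2 difference -1.31, SE 0.456, limma, adjusted p = 0.68). Clec7a was 7.89 and 9.75 FPKM in WT and 5.57 and 1.72 in null fats (-1.21, SE 0.461, limma, adjusted p = 0.68). Both null fats lay below both WT fats for these genes, as they did for Adgre1, Cd68, Csf1r, Mpeg1, Mrc1, Msr1 and Ly86, and also for Trem2 and Vsig4. Without null fat replicate 2 the differences of Ccl2 and Clec7a were -0.80 and -0.57. Lyz2, at 517 and 801 FPKM in WT, was 659 in null fat 1 and 187 in null fat 2. Lgals3 was 213 and 372 FPKM in WT, 221 in null fat 1 and 27.5 in null fat 2, and Cd68 was 87.0 and 140 FPKM in WT, 85.97 in null fat 1 and 19.0 in null fat 2. Cd163 lay above both WT fats in both null fats, at 19.7 and 13.7 FPKM in WT and 30.3 and 20.0 in null fats (log2 difference 0.56, SE 0.323, limma, adjusted p = 0.68). The other 11 shared genes had overlapping groups, with log2 differences from -1.83 (Lgals3) to -0.24 (Mertk). Folr2, the one Kupffer gene abundant in fat, was 73.5 and 94.7 FPKM in WT and 92.3 and 39.6 in null fats (-0.46, SE 0.473). Timd4, Marco and Vsig4 lay at 3.83 FPKM or less, with log2 differences of 0.32, -0.53 and -0.97.

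The related lists of fat held no gene called at the adjusted threshold. The study thresholds were passed by 5.35% of all genes in the lower and 0.708% in the higher direction. By them 5 of 12 growth factors and chemokines were lower, among them Ccl3 (log2 difference -1.76), Ccl12 (-1.60), Ccl4 (-1.40) and Ccl7 (-1.36). Ccl12, a ligand of Ccr2 in mice, was 11.3 and 6.10 FPKM in WT and 1.97 and 2.22 in null fats. Its groups were far apart and the null fats were alike. Of phagocyte receptors and their signalling, C5ar1, the receptor of complement fragment C5a, was 17.6 and 20.9 FPKM in WT and 2.48 and 5.42 in null fats (-2.10, SE 0.354), and Stab1, a scavenger receptor (-0.99), was lower, whereas Axl, a receptor of Gas6, was 20.9 and 17.0 FPKM in WT and 39.8 and 29.0 in null fats (0.82, SE 0.274). Nos2, the inducible nitric oxide synthase (-1.10), Tnf, the cytokine (-0.98), and Tlr2 (-0.85) were the 3 of 8 inflammatory genes past the study thresholds, and Slc40a1, the iron exporter (-0.77), and Runx1 (-0.65) the only ones of their lists. All of these had an adjusted p of 0.68 by limma. Ccl3 (0.975 and 0.299 FPKM in null fats) and Tnf (0.808 and 0.2745) were tested only because of their WT level.

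Lists of markers of other cells differed between the null fats too. Leukocyte genes summed to 209 and 258 FPKM in WT, 205 in null fat 1 and 62.9 in null fat 2, T and NK cell genes to 29.0 and 21.6 in WT, 15.9 and 3.84 in null fats, and neutrophil genes to 45.4 and 41.4 in WT, 23.2 and 6.71 in null fats. These 3 sums were below WT in both null fats, the leukocyte sum only just in null fat 1, as were those of endothelial and mast cell genes. Of all genes tested singly in fat, 36.1% lay below both WT fats in both null fats. Adipocyte genes summed to 9214 and 8637 FPKM in WT, 10830 in null fat 1 and 4356 in null fat 2, 0.488 times the WT mean. In null fat 2 the 21 shared macrophage genes were at 0.252 times their WT mean. The 6 lipid-associated genes were at 0.135 times and the 6 Kupffer genes at 0.46 times theirs. Leukocyte genes stood there at 0.27 times, T and NK cell genes at 0.152 times and neutrophil genes at 0.155 times their WT mean. Endothelial genes summed to 162 and 207 FPKM in WT, 129 in null fat 1 and 71.8 in null fat 2. Red blood cell genes summed to 2678 and 4441 FPKM in WT, 11670 in null fat 1, where all 5 were above both WT fats, and 3924 in null fat 2. The part of these cells and of the muscle RNA in the low macrophage genes of null fat 2 was not tested.

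Whether the difference between null and WT was itself different in the 2 tissues was tested by the interaction of tissue and genotype. Of the 30 genes tested in both tissues 0 were called by limma, as were 0.0% of all 9905 genes. At an unadjusted p under 0.05 stood 0 of the 30 and 7.73% of all genes. The largest interactions were those of Spp1 (-2.20, SE 0.97, the difference in liver minus that in fat, limma, adjusted p = 0.668) and Marco (1.52, SE 0.937). Trem2 (0.62, SE 1.34) and Gpnmb (-0.07, SE 1.36) had errors too wide to tell a like difference from an unlike one. The call depended on which null fat was used: without null fat replicate 2 Spp1 (-3.30, SE 0.511, limma, adjusted p = 0.0349) and Ccr2 (-1.37, SE 0.14, adjusted p = 0.0174) were called, where 3.15% of all genes were, with the lower value in liver. Without null fat replicate 1 Trem2 (2.22), Mpeg1 (1.37) and Ly86 (0.76) were called, with the lower value in fat. These are 3 of 30 genes, where 26.7% of all genes were called.

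In WT mice the tissues held these genes at different levels. All 33 were tested in WT liver against WT fat, and called at an adjusted p under 0.05 with a log2 difference of at least 1. In liver 3 were higher, Spp1, Cd5l and Clec4f, where 11.8% of all 12782 genes were, and in fat 22 were higher, where 31.5% of all genes were. Mean Spp1 was 222 FPKM in WT liver and 3.73 in WT fat (log2 difference 5.64, SE 0.358, limma, adjusted p = 1.33e-04), and Cd5l 47.6 and 0.618 (4.86, SE 0.27). Clec4f was 26.7 FPKM in WT liver and at 0 or 0.00911 in WT fats. On the side of fat stood Folr2, all lipid-associated genes other than Spp1, and 16 of the 21 shared genes. Lgals3 was 21.8 times, Gpnmb 15.3 times, Folr2 13.7 times and Cd68 9.21 times as high in WT fat as in WT liver by mean FPKM. Mpeg1, Msr1 and Mertk were not called, with log2 differences (liver minus fat) of -0.38, -0.24 and -0.54. Clec7a and Aif1 had an adjusted p under 0.05 and a smaller difference than the limit (-0.74 and -0.83). Vsig4 (1.07, SE 0.593), Timd4 (-0.53) and Marco (-0.08) were not called either. This fit did not take liver and fat of a mouse as a pair. With the mouse number as a block, Vsig4 and Timd4 also had an adjusted p under 0.05 by limma, and of these Vsig4 met the limit of 1.

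**Figure D5:**
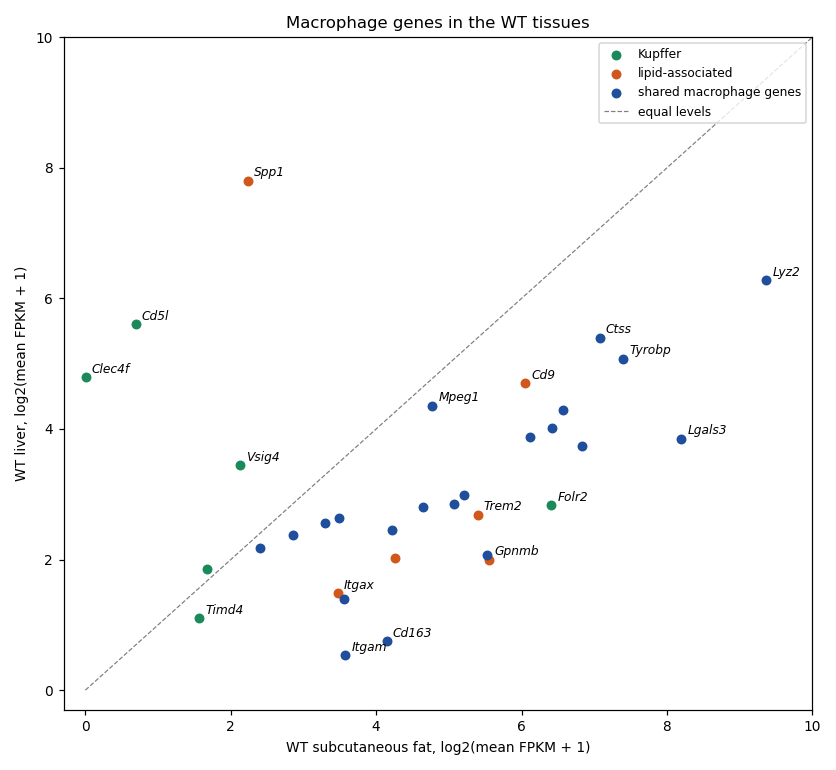
Mean level of each gene in WT liver (vertical axis) against WT fat (horizontal axis), both as log2(mean FPKM + 1) over 2 libraries, with the line of equal levels. Spp1, Cd5l and Clec4f lie far to the side of liver, whereas Lgals3, Folr2, Gpnmb, Trem2 and most shared genes lie to the side of fat.

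Over all genes the median difference between the WT tissues was -0.59 (liver minus fat), and 0.006 with median-of-ratios scaling, and of the genes with an adjusted p under 0.05 those higher in liver were 2289 of 10250 as deposited and 4390 of 8777 with that scaling. The median of the 33 genes was -2.12, and -1.54 with that scaling, under which 22 of the 33 were called in place of 25.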

How the data were processed

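RNA with poly(A) tails was sequenced from the liver and the subcutaneous fat of 2 WT and 2 null mice. Per the labels and the file headers, the authors made 1 file of transcript values per library with HISAT2, SAMtools and StringTie 1.3.3b on mm10, and deposited FPKM, TPM and coverage. The 36780 transcripts of 24532 gene IDs were fixed. RefSeq symbols were found for 24462 of the IDs, and the other 70 were left out. FPKM was scaled by library depth alone, so RNA of other cells lowers every other gene's value. Counts were not used here. How reads shared by similar genes were assigned is not given in the sources used here.

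FPKM was summed per gene. Genes with at least 1 FPKM in at least 2 of the 4 libraries were tested on log2(FPKM + 1) by limma 3.58.1 in R 4.3.3 (lmFit, eBayes with trend), each tissue apart, and Benjamini-Hochberg adjustment of p ran over all tested genes. The interaction was fitted over all 8 libraries. The p-values measure the spread between 2 mice a group. Depth (coverage against FPKM of the same transcripts) was 5.72 to 9.24 Gb of aligned read per library. Without read counts no counting interval can be given, and scarce transcripts are the least precise.

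The 33 genes, the related lists and the alternatives were chosen with earlier results of these data known. All 33 are named, and of each related list up to 4 genes in each tissue, those with the largest log2 difference among genes past the adjusted or the study thresholds. Other cells are given by summed levels. The result of 1 gene that this rule names is not reported here. Exceptions, chosen after their values were seen, are Fn1, Alb, Adipoq, Ly6g, Lyz1, S100a9, Cidec, Krt19 and Epcam. The alternatives were a pseudocount of 0.1, TPM, no filter, a filter at 5 FPKM, median-of-ratios scaling, quantile normalization, no trend, all 8 libraries in one fit, a replicate block and each library left out. Deviations of same-numbered WT and null libraries from their group means had r = 0.00616 in liver and 0.114 in fat, so the numbers were not taken as pairs across genotype. Liver and fat of a number come from the same mouse by their tags (r = 0.0554 in WT and 0.0919 in null mice). The procedure was tested on simulated data. Tables were written in Python 3.11.15 (pandas 2.3.3, numpy 2.4.6), and figures in matplotlib 3.10.9.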

Additional observations from a re-analysis of the deposited data

Results flagged for a closer look

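2 genes of the related lists stood on opposite sides of WT in the 2 tissues, with both null libraries above both WT libraries in liver and below them in fat. C6, a complement component that Kupffer cells and hepatocytes can express, was 20.9 and 70.5 FPKM in WT and 80.4 and 83.8 in null livers (log2 difference 1.07), and 40.5 and 29.0 FPKM in WT and 27.6 and 9.03 in null fats (-1.06). Nr1h3, the oxysterol receptor LXRα, was 63.7 and 64.6 FPKM in WT and 66.7 and 68.2 in null livers (0.072), and 73.5 and 79.7 in WT and 70.3 and 38.0 in null fats (-0.56). The separation of the samples is no test. Of all tested genes, 11.8% lay above WT in this way in liver and 36.1% below it in fat. The share that did both was not worked out. The interaction of tissue and genotype was 2.13 (SE 0.92, limma, adjusted p = 0.65) for C6 and 0.63 (SE 0.388, limma, adjusted p = 0.774) for Nr1h3, and neither passed the threshold.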

How the results depend on the processing

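In liver the 19 calls became 0 with all 8 libraries in one fit and 2 to 25 with 1 library left out. The 22 genes past the study thresholds became 6 with all 8 libraries in one fit and 12 with a filter at 5 FPKM, which left 19 genes to test, and 19 to 27 with 1 library left out. In fat the 0 calls became 7 with a replicate block and 0 to 28 with 1 library left out, and the 2 genes past the study thresholds became 1 with a pseudocount of 0.1 or no trend, 0 with no filter, 15 with a replicate block and 2 to 29 with 1 library left out. The interaction had 0 to 3 calls with 1 library left out, and WT liver against WT fat 19 to 25. Over all genes in liver, 2103 calls became 226 with all 8 libraries in one fit, 1242 with median-of-ratios scaling, 1033 with quantile normalization and 55 without null liver replicate 2. In fat 0 calls became 422 with a replicate block and 6284 without null fat replicate 1. The causes were not tested. The replicate block kept 18 of the 19 liver calls and lost Aif1.

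The direction of single genes held in 391 of 403 alternatives in liver and 391 of 399 in fat. In liver, Vsig4 was -0.002 with TPM, Folr2 was 0.095 and 0.123 and Mertk 0.08 and 0.14 with median-of-ratios scaling and quantile normalization. With 1 library left out, the log2 difference ranged in liver from -0.624 to 1.17 for Clec4f, -0.855 to 0.94 for Vsig4, -0.018 to 0.979 for Timd4, -0.763 to 0.597 for Folr2 and -0.513 to 0.334 for Mertk. In fat it ranged from -0.057 to 0.702 for Timd4, -1.17 to 0.113 for Marco, -1.06 to 0.144 for Folr2, -1.65 to 0.554 for Spp1, -1.77 to 0.032 for Lyz2, -0.928 to 0.239 for Itgam, -0.996 to 0.382 for Ccr2 and -0.697 to 0.212 for Mertk. With 1 library left out a group has a single library, which is assumed to vary like the other group. Genes under 1 FPKM, such as Gpnmb in null liver, are limited by depth.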
